A study of Mus musculus with 18 samples.

Results

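Oxidative phosphorylation genes of the nuclear genome were followed in 3 kinds of mouse cell that had received a mix of microRNA mimics or a control mimic. The genes were the protein-coding rows of the mm10 table whose symbols begin with Ndufa, Ndufb, Ndufc, Ndufs, Ndufv, Uqcr, Atp5 or Cox4 to Cox8, together with Sdha, Sdhb, Sdhc and Sdhd. These names took 92 of the 53342 genes in the table, or 92 of its 21950 protein-coding genes. They comprised 38 genes of complex I, 8 complex I assembly factors (Ndufaf1 to Ndufaf8), 4 genes of complex II, 8 of complex III, 18 of complex IV and 16 of complex V. The rule read names only and used no expression value. It took Ndufa4 and Ndufa4l2 by name with complex I, although the Ndufa4 protein is known to associate with complex IV. Cyc1 of complex III and the mitochondrially encoded subunits lie outside the rule, and the table had 0 rows of the mitochondrial genome.

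The respiratory chain sits in the inner mitochondrial membrane. Complex I takes electrons from NADH and complex II takes them from succinate. Complex III passes the electrons on to cytochrome c, and complex IV hands them to oxygen. Complexes I, III and IV pump protons, and complex V, the ATP synthase, lets protons flow back to make ATP. Neurons are known for a strong dependence on this pathway, whereas astrocytes and activated microglia are known to rely more on glycolysis.

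The cells were Neuro-2A, a mouse neuroblastoma line labelled as neurons, primary mouse astrocytes with the genotype WT, and BV-2, an immortalised mouse microglial line. The labels give both lines as not genetically modified. The treated arm received mimics of miR-140-5p, miR-99b-3p and miR-199a-3p together in equal amounts, and the control arm received cel-miR-67, each as a Dharmafect 1 complex at 25 nM for 24 h. All 18 libraries came from transfected cells, with 3 libraries per arm and cell type, and each cell type had its own controls. The labels give no age or sex for the astrocyte donors and do not say whether the libraries of a group came from separate cultures, and each p-value therefore speaks of library-to-library spread alone, possibly of technical origin. Media and seeding densities differed between the cell types.

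Library totals lay between 18.5 and 27.9 M counts, lowest in BV-2 control library 3. In Neuro-2A, library 1 of both arms stood apart: the deviations of mix library 1 and control library 1 from their group means correlated at 0.587 across genes, and each of them correlated negatively with the other numbers of the opposite arm. Of the cell type markers, 6 of 7 neuronal genes lay above the floor of 1 TPM in every Neuro-2A library, 7 of 7 astrocytic genes in every astrocyte library and 8 of 8 microglial genes in every BV-2 library. In BV-2, C1qa (means of 3.26 TPM in the controls and 2.54 with the mix) and P2ry12 (1.88 and 2.36) were near the floor. C1qa was far higher in the astrocyte cultures (168.9 and 188.2 TPM). The table has 2 overlapping Itgam rows, of which the first was used and the second was at the floor. Astrocytic markers were all at the floor in the Neuro-2A and BV-2 libraries. The astrocyte cultures also carried 7 of 7 oligodendrocyte lineage, 4 of 4 ependymal and 8 of 8 microglial markers in every library. RNA from bulk cultures cannot tell fewer cells of a type from less RNA per cell.

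The mature sequences of both mix members that were at hand, credited to RefSeq (GRCm38.p6), are shown because the search for sites in the members rests on their seeds, bases 2 to 8, in capitals.
miR-199a-3p: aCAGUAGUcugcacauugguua
miR-99b-3p: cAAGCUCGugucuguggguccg
The first is encoded by Mir199a-2 on chromosome 1 and by Mir199a-1 on chromosome 9, the other by Mir99b on chromosome 17. Their seeds differ, so the 2 microRNAs fall into separate seed groups. Sites of miR-140-5p and cel-miR-67 were not analysed here.

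TPM values, transcript levels scaled for gene length and library size, allow the levels of different genes to be set side by side. By summed TPM the 92 genes stood at 17075 to 18516 in the Neuro-2A controls, at 15324 to 16634 in the BV-2 controls and at 12754 to 13228 in the astrocyte controls, and these 3 ranges did not overlap. Their share of all counts was 1.046% to 1.151%, 0.895% to 1.0% and 0.621% to 0.646% in that order. Complex I gave 31.4% of the summed control level in Neuro-2A, 34.3% in astrocytes and 29.1% in BV-2. Complex V gave 28.6%, 21.1% and 23.2%, and its summed level fell in separate ranges: 4845 to 5345 TPM in Neuro-2A, 2697 to 2797 in astrocytes and 3572 to 3830 in BV-2 controls. Complex III and complex II took their highest summed control levels in BV-2, at 2146 ± 114 and 1031 ± 8.19 TPM (SD, n = 3), against 1711 ± 70.0 and 928.3 ± 34.9 in Neuro-2A and 1531 ± 31.9 and 748 ± 22.3 in astrocytes.

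**Figure D1:**
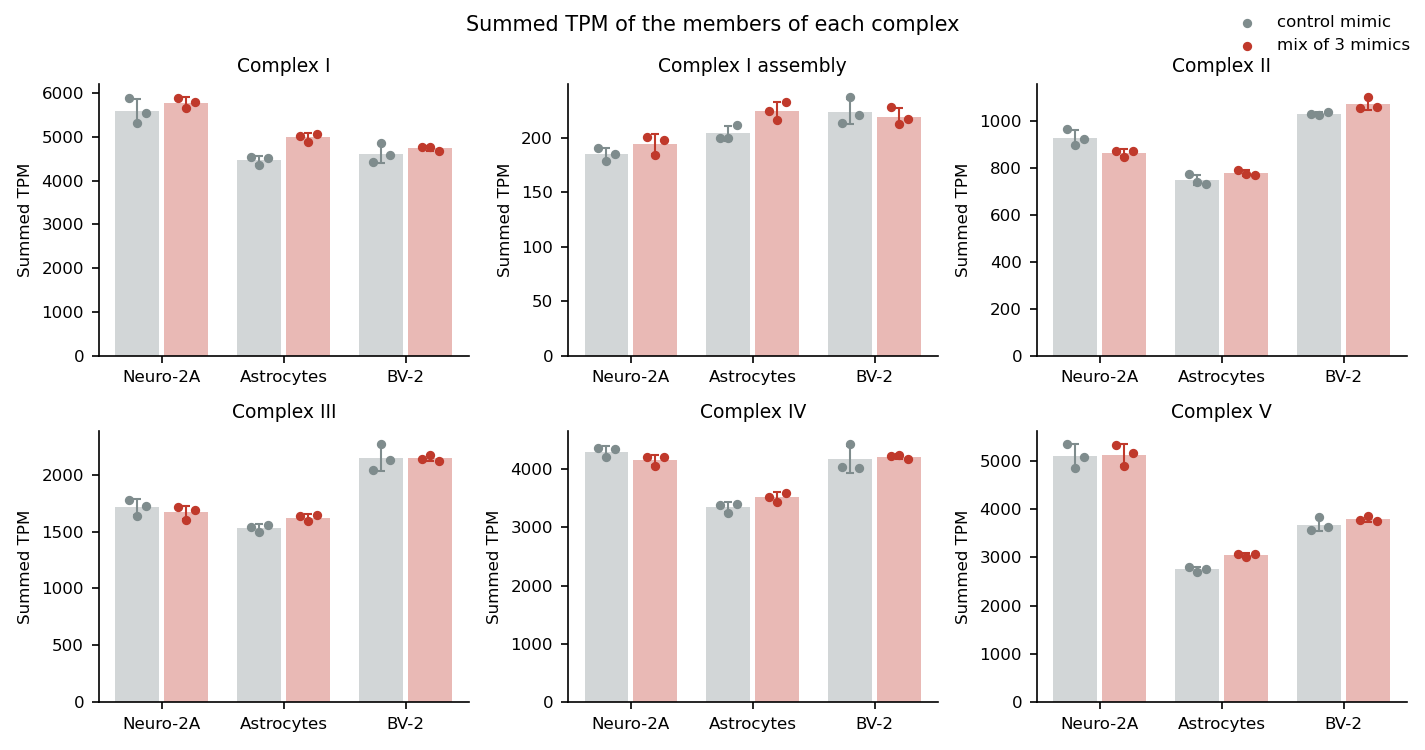
Summed TPM of the members of each complex (y axis, linear from 0) in the control mimic (grey) and mix (red) libraries of each cell type (x axis). Points are libraries, bars are means and error bars are SDs of 3 libraries; the complex V bars are tallest in Neuro-2A, and the astrocyte mix libraries lie above their controls for complexes I, III, IV and V.

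Within the astrocytes, the summed level of all members was 13888 to 14383 TPM in the mix libraries, above the 12754 to 13228 TPM of the controls. Both complex I (4877 to 5071 against 4367 to 4535 TPM) and complex V (3004 to 3074 against 2697 to 2797 TPM) were higher in every mix library than in any control. In Neuro-2A the summed level of 17230 to 18202 TPM in the mix arm lay inside the control range, and in BV-2 the mix range of 15971 to 16352 TPM did too. By complex, the arms of both lines separated for complex II only, in opposite directions. Its sum was 847 to 874 TPM with the mix against 897 to 966 in the Neuro-2A controls. In BV-2 it was 1053 to 1100 TPM with the mix against 1024 to 1040 in the controls. TPM and the scaled counts used for the tests differed here. The median log2 fold change over all tested genes was 0.0508 in astrocytes and 0.0496 in BV-2 on the log2(TPM + 1) scale, against 0.00767 and −0.00246 with counts scaled by TMM, edgeR's normalization.

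Gene by gene, mix and control libraries were compared by edgeR's quasi-likelihood test on the counts, with Benjamini-Hochberg adjustment over all tested genes and a threshold of 0.05 (a gene past it is called). In Neuro-2A, 4 of the 89 tested members were lower and 3 higher, where 12.9% of all tested genes were called (7.88% lower and 5.01% higher). Among the 87 members tested in astrocytes, 3 were lower and 22 higher, where 40.2% of all genes were called (20.6% lower and 19.7% higher). In BV-2, 0 of 86 members were lower and 1 was higher, where 10.0% of all genes were called (5.41% lower and 4.61% higher). Without adjustment, 8 BV-2 members had a p under 0.05, and the DESeq2 test called 2 lower. The share of members called in this edgeR test was 7.87%, 28.7% and 1.16%, below the share of all genes in each cell type. In astrocytes this order depended on the scale, as given below for limma on log2(TPM + 1). A filter on low counts left out Cox8b, Cox8c and other members with few reads, and 85 members were tested in all 3 cell types.

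The changes were small for most members. The median log2 fold change of the tested members was 0.04 in Neuro-2A, 0.06 in astrocytes and −0.05 in BV-2, against 0.00594, 0.00767 and −0.00246 over all tested genes. On the log2(TPM + 1) scale the BV-2 median turned to 0.02, and it also turned to 0.02 without BV-2 control library 2. The BV-2 median was −0.10 without control library 1, and the astrocyte median was 0.13 on the log2(TPM + 1) scale and 0.03 without control library 2. Log2 fold changes above 0 were found for 54 of 89 members in Neuro-2A, 70 of 87 in astrocytes and 18 of 86 in BV-2. In all, 26 members were called in at least 1 cell type and 66 in none. The 66 include members that were not tested, such as Cox8b and Cox8c. Calls in at least 1 cell type were not counted over all genes, so this number has no background share.

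**Figure D2:**
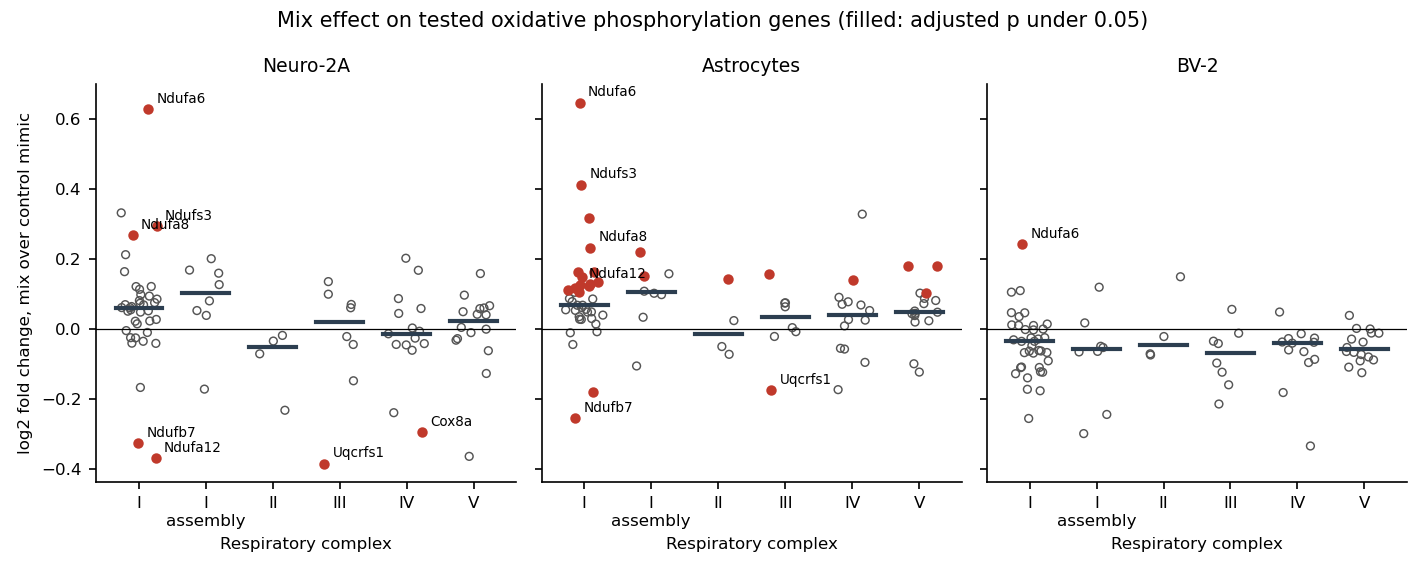
Log2 fold change of mix over control mimic (y axis) for every tested member, by complex (x axis), in Neuro-2A, astrocytes and BV-2. Filled points passed an adjusted p of 0.05, open points did not, and dark lines mark the median of each complex; Ndufa6 is the top point in all 3 panels, and 16 of the 25 filled points of the astrocyte panel belong to complex I, the complex with the most members.

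Library numbers were taken to pair the Neuro-2A libraries, because same-numbered libraries deviated together. This set number 1 apart, whereas numbers 2 and 3 also correlated across numbers (0.245 and 0.169), so their pairing is uncertain. With the number as a block, 10 Neuro-2A members were lower and 16 higher, where 19.5% and 18.2% of all genes were called lower and higher. The added calls included the anchor subunit Sdhd (−0.23, adjusted p = 0.000313), the accessory subunit Ndufa5 (0.34, 0.000159) and the supercomplex factor Cox7a2l (0.17, 0.00294). With Neuro-2A libraries 2 and 3 of both arms alone, 7 members were lower and 5 higher, or 13.5% of the 89 tested. Over all 16123 genes tested in that fit, 2069 were lower and 1594 higher, a larger share. In astrocytes the count of members called higher fell from 22 to 7 without control library 2, to 10 without mix library 3, to 11 without control library 3, to 13 without control library 1 and to 14 without mix library 1. Tested by limma on log2(TPM + 1), 1 astrocyte member was lower and 44 were higher. These were 51.7% of the 87 tested members, a larger share than the 7170 of 17770 genes called in that test. Over all astrocyte genes, the share of called genes that were higher was 66.6% in that test and 48.9% in the edgeR test; in BV-2 it was 69.5% and 46.0%.

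Ndufa6 was the member that rose in all 3 cell types. It encodes an accessory subunit of complex I of the LYR family, which binds the mitochondrial acyl carrier protein Ndufab1, and lies on chromosome 15 of mm10 (ENSMUSG00000022450, 82350139 to 82354291, minus strand). In Neuro-2A it read 225.4, 235.1 and 226.9 TPM in the controls and 335.3, 362.5 and 351.9 TPM in the mix libraries. In astrocytes it read 147.7, 125.6 and 138.1 TPM in the controls and 223.7, 219.7 and 229.8 TPM with the mix. In BV-2 it read 176.1, 189.3 and 186.7 TPM in the controls and 230.4, 226.7 and 228.7 TPM with the mix. Every mix library lay above every control of its cell type, and the mix libraries of astrocytes and BV-2 came close to the Neuro-2A control level. The log2 fold change was 0.63 ± 0.056 in Neuro-2A (SE, adjusted p = 0.000739), 0.65 ± 0.058 in astrocytes (2.31e-06) and 0.24 ± 0.062 in BV-2 (0.0402). The BV-2 call was lost under 7 of 13 alternative settings, among them leaving out any mix library or control library 1 or 3, with adjusted p-values from 0.00358 to 0.171 over all 13.

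The rise of Ndufa6 was larger in astrocytes than in BV-2 by 0.42 ± 0.089 on the log2 scale (interaction in a fit of all 18 libraries, adjusted p = 0.00671) and larger in Neuro-2A than in BV-2 by 0.40 ± 0.087 (0.0166). Astrocytes and Neuro-2A differed by 0.02 ± 0.088 (adjusted p = 1).

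Ndufs3 and Ndufa8 rose in Neuro-2A and astrocytes. Ndufs3 is a core subunit of the hydrophilic arm of complex I, on chromosome 2 (90894634 to 90904827, minus strand). It read 37.4, 35.3 and 41.4 TPM in the Neuro-2A controls against 45.6, 44.7 and 47.8 TPM with the mix. In astrocytes it read 56.0, 54.0 and 55.4 TPM in the controls against 73.8, 79.4 and 77.1 TPM. In BV-2 it read 61.3, 63.1 and 64.2 TPM in the controls against 64.8, 65.6 and 67.2 TPM. The groups did not overlap in any cell type by TPM, yet in BV-2 the TMM-scaled counts gave a log2 fold change of 0.00 with a standard error of 0.0564 (adjusted p = 1.0). The log2 fold change was 0.29 ± 0.075 in Neuro-2A (adjusted p = 0.0399) and 0.41 ± 0.043 in astrocytes (8.94e-06), and the effect in astrocytes exceeded that in BV-2 by 0.43 ± 0.082 (adjusted p = 0.00306). The Neuro-2A call was lost under 8 of 14 alternatives, 5 of which left out 1 library. Ndufs3 shares 88 bases with Kbtbd4 on the opposite strand, and the sources used here do not say whether counting used strand.

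Ndufa8, an accessory subunit of complex I with paired cysteines, also lies on chromosome 2 (36036326 to 36049406, minus strand). It read 194.6, 205.8 and 210.7 TPM in the Neuro-2A controls against 246.3, 237.4 and 243.0 TPM with the mix. In astrocytes it read 170.3, 160.1 and 170.1 TPM against 209.4, 192.6 and 212.6 TPM. In BV-2 the 2 arms overlapped, with 318.3, 346.4 and 316.8 TPM in the controls and 326.3, 320.8 and 307.7 TPM with the mix. BV-2 therefore had the highest level of Ndufa8 in either arm and the only fold change below 0, which was not past the threshold. The log2 fold change was 0.27 ± 0.054 in Neuro-2A (adjusted p = 0.0171), 0.23 ± 0.049 in astrocytes (0.00212) and −0.11 ± 0.066 in BV-2 (0.344). The difference was 0.39 ± 0.084 between Neuro-2A and BV-2 (adjusted p = 0.0156) and 0.36 ± 0.085 between astrocytes and BV-2 (0.0138). Without BV-2 mix library 3 the former reached an adjusted p of 0.0517, and without astrocyte control library 2 the latter reached 0.0519. The Neuro-2A call of Ndufa8 was lost on leaving out any mix library or control library 2, with adjusted p-values up to 0.0753.

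Ndufa12 moved in opposite directions. It encodes an accessory subunit of the hydrophilic arm of complex I and is a paralogue of the assembly factor Ndufaf2; it lies on chromosome 10 (94198955 to 94221443, plus strand). In Neuro-2A it fell from 241.5, 206.9 and 224.4 TPM in the controls to 167.0, 168.1 and 178.9 TPM with the mix. In astrocytes it rose from 113.8, 112.2 and 116.2 TPM to 128.2, 127.0 and 135.1 TPM. In BV-2 the arms overlapped at 130.9, 158.9 and 148.6 TPM against 140.3, 149.4 and 137.1 TPM. All 3 Neuro-2A mix libraries were below their controls, and all 3 astrocyte mix libraries were above theirs. The log2 fold change was −0.37 ± 0.066 in Neuro-2A (adjusted p = 0.0109) and 0.13 ± 0.042 in astrocytes (0.0283). The effects differed by 0.50 ± 0.10 (adjusted p = 0.0077). The astrocyte rise lost its call under 7 of 13 alternatives, and the difference between the cell types kept its call under all 16 that were run.

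Ndufb7 and Uqcrfs1 fell in both Neuro-2A and astrocytes. Ndufb7 encodes an accessory subunit of the membrane arm of complex I, on chromosome 8 (83566671 to 83571626, plus strand). It read 60.8, 51.8 and 51.4 TPM in the Neuro-2A controls and 46.7, 41.2 and 41.2 TPM with the mix. In astrocytes the values were 29.6, 33.3 and 32.5 TPM and 27.4, 27.9 and 28.2 TPM, and in BV-2 they were 35.1, 40.7 and 37.5 TPM and 33.4, 34.4 and 31.7 TPM. The mix libraries lay below the controls in each cell type, without overlap. The log2 fold change was −0.33 ± 0.084 in Neuro-2A (adjusted p = 0.0414), −0.26 ± 0.049 in astrocytes (0.00121) and −0.26 ± 0.078 in BV-2 (0.073, not called). The Neuro-2A call was lost under 7 of 14 alternatives, among them leaving out any control library or mix library 2 or 3.

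Uqcrfs1 encodes the Rieske iron-sulfur protein, a catalytic subunit of complex III that takes electrons from ubiquinol, on chromosome 13 (30540308 to 30545362, minus strand). In Neuro-2A it read 164.6, 159.9 and 159.1 TPM in the controls and 126.0, 113.3 and 126.2 TPM with the mix. In astrocytes it read 192.6, 188.8 and 196.1 TPM against 177.3, 171.5 and 185.8 TPM. In BV-2 it read 314.9, 341.5 and 330.9 TPM against 295.7, 303.3 and 293.9 TPM. Each cell type had all mix libraries below all controls. The log2 fold change was −0.39 ± 0.059 in Neuro-2A (adjusted p = 0.00569), −0.17 ± 0.040 in astrocytes (0.00382) and −0.21 ± 0.059 in BV-2, where the adjusted p of 0.0501 missed the threshold. Limma on log2(TPM + 1) gave an adjusted p of 0.0602 in astrocytes. The other 7 genes of complex III had 1 call: Uqcrb, an accessory subunit next to the quinone pocket, was higher in astrocytes by 0.16 ± 0.057 (adjusted p = 0.0418), which no longer passed under 8 of 13 alternatives.

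**Figure D3:**
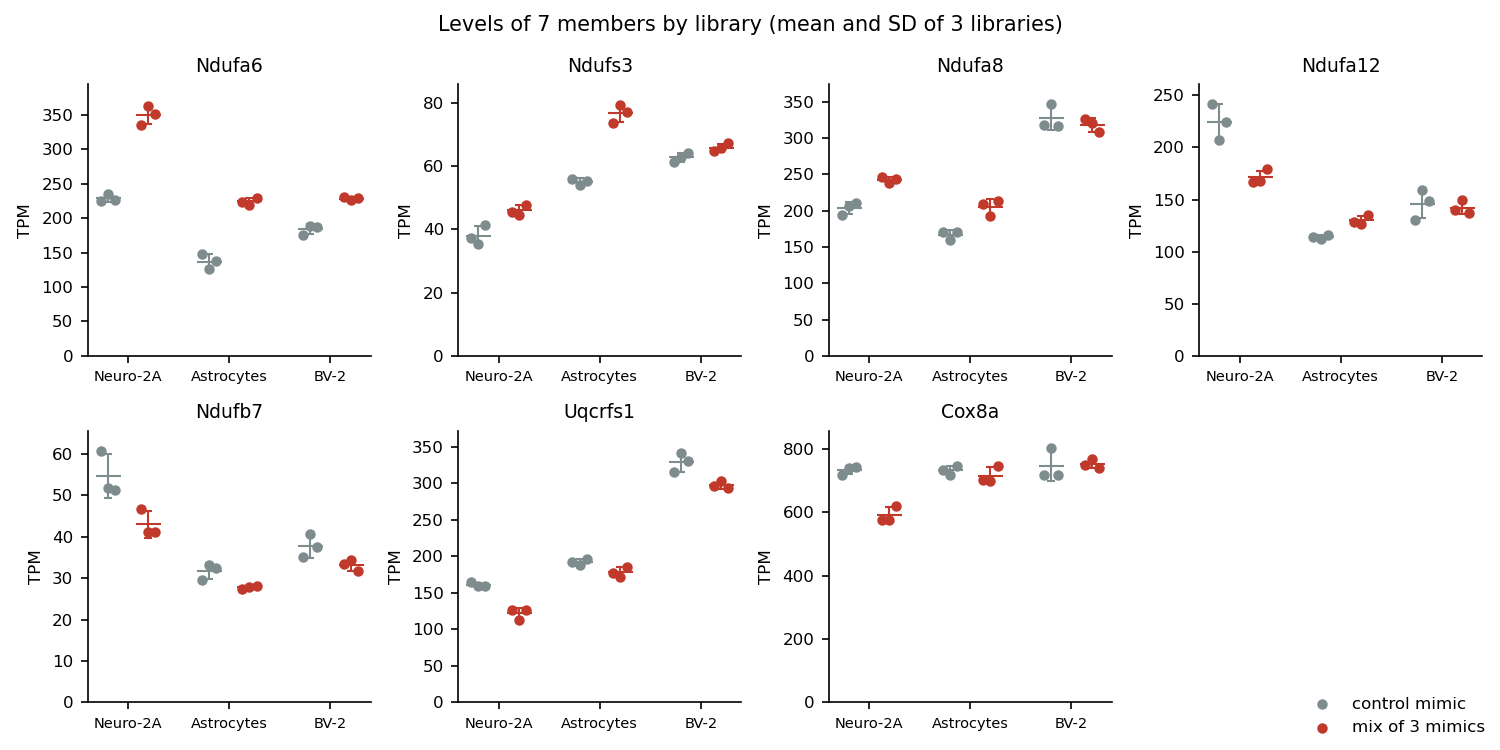
TPM (y axes, linear from 0, a scale per gene) of 7 members in each library of the control mimic (grey) and mix (red) arms, by cell type; bars give mean and SD of 3 libraries. The mix points of Ndufa6 stand above the control points in all 3 cell types, those of Ndufb7 and Uqcrfs1 below them, and those of Ndufa12 below in Neuro-2A and above in astrocytes.

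Of the 37 complex I genes tested in astrocytes, 2 were lower and 14 higher, so that 43.2% were called, near the 40.2% of all genes. Besides the genes above, Ndufa7 was lower (−0.18 ± 0.044, adjusted p = 0.00607), and in TPM its mix libraries of 129.1, 115.9 and 126.4 lay below the controls of 131.3, 134.1 and 136.6, although limma on log2(TPM + 1) gave an adjusted p of 0.115. Ndufa5, an accessory subunit of the hydrophilic arm, was higher by 0.32 ± 0.087 (adjusted p = 0.0116). The core subunit Ndufv2 was higher by 0.15 ± 0.034 (0.00418). The remaining 9 were Ndufab1, Ndufb2, Ndufb8, Ndufb9, Ndufb10, Ndufc1, Ndufs4, Ndufv3 and the Ndufa12 described above, with log2 fold changes between 0.11 and 0.16. Ndufb2 shares 4022 bases with Gm42420 on the same strand, so its level, 11.1 TPM on average, is uncertain. Of the 8 assembly factors, Ndufaf2 (0.22 ± 0.075, adjusted p = 0.0322) and Ndufaf4 (0.15 ± 0.056, 0.0445) were higher in astrocytes, calls lost under 6 and 8 of 13 alternatives. In the other cell types edgeR called 0 without the block, with 1 unadjusted p under 0.05 in Neuro-2A and 2 in BV-2; the blocked fit called 3 of 8 higher in Neuro-2A. Ndufaf2 shares 4727 bases with Smim15 on the opposite strand.

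Complex II, which also belongs to the tricarboxylic acid cycle, had 1 called gene. The iron-sulfur subunit Sdhb read 122.4, 116.6 and 118.8 TPM in the astrocyte controls and 140.7, 133.3 and 138.6 TPM with the mix. These ranges did not overlap, and the log2 fold change was 0.14 ± 0.036 (adjusted p = 0.00733, or 0.0563 without control library 2). Sdha, the flavoprotein subunit, changed by −0.03, −0.07 and 0.15 in Neuro-2A, astrocytes and BV-2, and the membrane anchors Sdhc and Sdhd by −0.07, −0.05 and −0.02 and by −0.23, 0.02 and −0.07. None of these 9 values was past the threshold in the edgeR fits without a block.

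In complex IV, Cox8a was lower in Neuro-2A, where the edgeR fit without the block called 1 of 15 tested genes and the blocked fit called 2 lower and 1 higher. It encodes the broadly expressed form of subunit VIII, on chromosome 19 (7215158 to 7217616, minus strand), and ranked second among all members by mean TPM. It read 718.1, 740.0 and 742.1 TPM in the Neuro-2A controls and 575.3, 576.5 and 619.5 TPM with the mix. The mix libraries were all lower, by −0.29 ± 0.051 on the log2 scale (adjusted p = 0.00949), and the call stood under all 14 alternatives. In astrocytes the change was −0.10 ± 0.038 (adjusted p = 0.0651) and in BV-2 −0.06 ± 0.069 (0.658), with overlapping TPM in both. Cox5a, a matrix-facing subunit, was higher in astrocytes by 0.14 ± 0.041 (adjusted p = 0.0152), rising from 103.1, 101.9 and 106.8 to 121.2, 114.4 and 124.0 TPM. That call was lost without mix library 3, without control library 2 and in the fit of all 18 libraries, at adjusted p-values of 0.0591, 0.0824 and 0.105.

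Complex V had 3 genes called higher in astrocytes. In Neuro-2A and BV-2 edgeR called 0 of its 16 genes without the block, with 1 and 0 unadjusted p-values under 0.05, and the blocked fit called 2 lower and 2 higher in Neuro-2A. Atp5b, the catalytic beta subunit and the most abundant member (ENSMUSG00000025393, chromosome 10, 128083273 to 128090391, plus strand), rose from 570.7, 530.3 and 537.4 to 649.3, 634.5 and 654.1 TPM. Its 3 mix libraries lay above the 3 controls, with a log2 fold change of 0.18 ± 0.035 (adjusted p = 0.00136). Atp5g3, 1 of the genes for the c ring, rose from 196.3, 189.1 and 195.5 to 229.6, 220.6 and 237.5 TPM, again without overlap (0.18 ± 0.037, 0.0020). The delta subunit gene Atp5d was higher by 0.10 ± 0.038 (0.0433), a call lost under 9 of 13 alternatives. Atp5d shares 2204 bases with Cbarp on the opposite strand. The calls of Atp5b and Atp5g3 stood under all 13.

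Other values moved with the arms. In the astrocyte cultures the 7 astrocytic markers summed to 8755.3 to 9259.7 TPM in the controls and 6971.9 to 7571.5 TPM with the mix. Aqp4 (means of 1796 and 732.3) and Gfap (5591 and 4996) lost the most TPM. Slc1a3 (722 and 607.2), Slc1a2 (114.9 and 65.0) and Gja1 (95.5 and 71.7) were also lower without overlap, and each fell more than Gfap in proportion. Aldh1l1 (685.2 and 675.7) and S100b (69.2 and 66.3) overlapped between the arms. The 5 fibroblast and pericyte markers summed to 1667.1 to 1863.4 TPM in the controls and 1222.5 to 1472.4 TPM with the mix. Only Acta2 fell among them (means of 1733 and 1267 TPM). Col1a1 (27.4 and 38.8), Col1a2 (10.1 and 11.7) and Pdgfrb (22.8 and 24.4) rose without overlap. Dcn stayed at or near the floor. The 4 ependymal markers summed to 757.8 to 829.2 against 693.1 to 789.9 TPM. For the 7 oligodendrocyte lineage markers the sums were 838.8 to 864.5 against 855.4 to 925.4 TPM. The 8 microglial markers gave 374.8 to 433.2 against 385.4 to 520.8 TPM. The 7 neuronal markers gave 278.0 to 287.3 against 293.1 to 297.3 TPM. Of the 4 endothelial markers, 3 lay at the floor in every astrocyte library. In Neuro-2A the neuronal markers summed to 1058.8 to 1312.1 TPM in the controls and 861.3 to 961.3 TPM with the mix. Tubb3 (means of 635.6 and 449.4), Stmn2, Syt1 and Map2 were lower there without overlap, whereas Gap43, Snap25 and Rbfox3 overlapped. The part of these shifts in the members' values was not tested. In BV-2 the microglial markers summed to 3098.9 to 3442.9 and 3310.5 to 3412.1 TPM, and the neuronal, astrocytic and oligodendrocyte lineage lists were at the floor in every library.

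Few members passed the threshold for a different response to the mix between cell types. Of 90 members in the fit of all libraries, 1 differed between astrocytes and Neuro-2A, 3 between astrocytes and BV-2 and 2 between Neuro-2A and BV-2, and these 6 results concerned Ndufa6, Ndufa8, Ndufs3 and Ndufa12. Over all genes in that fit 4.68%, 7.05% and 3.51% were called. Without adjustment, 7, 19 and 16 members had a p under 0.05 in these edgeR contrasts. Log2 differences above 0 were found for 63, 78 and 71 of the 90 members. Their medians were 0.038, 0.12 and 0.084, against 0.023, 0.020 and 0 over all genes in the fit. Without BV-2 control library 2 the members' medians were 0.059 for astrocytes minus BV-2 and 0.022 for Neuro-2A minus BV-2. Without Neuro-2A control library 2 the first count became 2, and without BV-2 control library 1 the second became 10. The third became 4 without BV-2 control library 2 and 1 without BV-2 mix library 3. With the library number as a block the counts were 3, 9 and 6.

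The members differed more between cell types than between arms. In the control libraries, 55 of 90 members were lower in astrocytes than in Neuro-2A and 27 higher, where 38.6% of all genes were lower and 48.7% higher. Against BV-2, astrocytes had 50 lower and 23 higher members, where 37.8% and 49.1% of all genes were lower and higher. Neuro-2A had 37 lower and 36 higher members than BV-2, where the shares were 36.3% and 42.7%. The members' median log2 difference was −0.24, −0.22 and −0.01 in these comparisons, whereas that of all tested genes was 0.21, 0.26 and 0.08 with TMM and 0.23, 0.32 and 0.13 with DESeq2 size factors. Each pair of these comparisons shares a set of control libraries, and cell type cannot be told apart from medium, seeding and culture.

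By complex, the level in astrocytes was lowest relative to Neuro-2A for complex V, with 12 of 16 genes lower, 3 higher and a median log2 difference of −0.59. Complex IV followed at −0.44 (10 of 16 lower), and the assembly factors stood at 0.26 (3 of 8 lower, 4 higher). Atp5b differed most within complex V, at −1.42 ± 0.048 (adjusted p = 6.57e-16), with 1637, 1500 and 1594 TPM in the Neuro-2A controls against 570.7, 530.3 and 537.4 TPM in astrocytes. The BV-2 controls lay between them at 863.5, 846.6 and 828.2 TPM. Sdhb had the same order, with 398.1, 367.2 and 360.8 TPM in Neuro-2A, 137.3, 146.5 and 144.8 TPM in BV-2 and 122.4, 116.6 and 118.8 TPM in astrocytes. All 3 Neuro-2A libraries stood above the rest, and the other two cell types differed by −0.32 ± 0.052 (astrocytes minus BV-2, adjusted p = 1.2e-05).

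Subunits of the same complex did not keep a common order across cell types. Within complex II, Sdha was highest in astrocytes (294.1, 278.5 and 274.6 TPM against 245.3, 227.2 and 228.7 in BV-2 and 164.0, 186.3 and 195.9 in Neuro-2A). Sdhd was highest in BV-2 at 529.4, 536.2 and 551.0 TPM, against 286.9, 235.0 and 255.3 in Neuro-2A and 217.6, 205.4 and 199.3 in astrocytes. The assembly factor Ndufaf1 went from 18.7 ± 0.148 TPM in Neuro-2A through 40.6 ± 0.833 in astrocytes to 59.5 ± 3.30 in BV-2 (SD, n = 3). Uqcr10, a small subunit of complex III, stood at 578.8, 683.2 and 600.6 TPM in the BV-2 controls, 357.1, 299.0 and 328.6 in Neuro-2A and 263.1, 272.3 and 279.5 in astrocytes. In contrast, Cox8a did not differ detectably between astrocytes and Neuro-2A controls (0.11 ± 0.060, adjusted p = 0.0963) or between astrocytes and BV-2 (−0.09 ± 0.060, 0.182), whereas it was lower in Neuro-2A than in BV-2 by −0.20 ± 0.060 (0.0059). Counting members called the same way against both other cell types, Neuro-2A was highest for 34, BV-2 for 29 and astrocytes for 14. Astrocytes were lowest for 36, Neuro-2A for 18 and BV-2 for 9. The same ranking was not made over all genes, so it cannot be called particular to the members. Of 20308 genes, 17739 differed between astrocytes and Neuro-2A, 17640 between astrocytes and BV-2 and 16034 between Neuro-2A and BV-2.

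**Figure D4:**
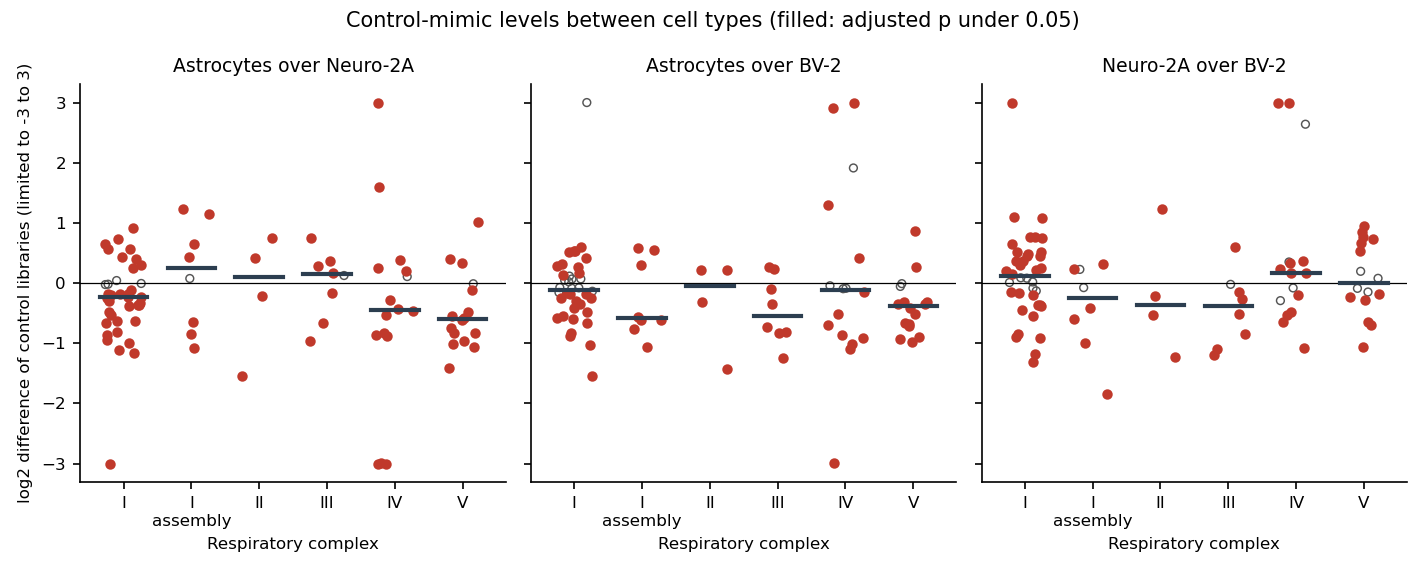
Log2 difference between the control mimic libraries of each pair of cell types (y axis, values beyond −3 or 3 drawn at the limit) for the 90 members in the fit, by complex (x axis). Filled points passed an adjusted p of 0.05 and dark lines mark medians; the complex V median lies at −0.59 for astrocytes over Neuro-2A.

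Several complex IV genes have a broadly expressed form and a form restricted to certain tissues, and of the restricted forms Cox6b2 and Cox7b2 were each above the floor in 1 cell type. Cox6b2, known as the testis form of subunit VIb, read 91.6, 87.2 and 87.8 TPM in the astrocyte controls and 88.2, 85.7 and 93.7 TPM with the mix, and it was at the floor of 1 TPM in all Neuro-2A and BV-2 libraries. It gave 2195 counts over the 3 astrocyte controls, 2 over the Neuro-2A controls and 0 over the BV-2 controls. Of the summed TPM of Cox6b2 and its broad counterpart Cox6b1, Cox6b2 made up 13.2% to 13.5% in the astrocyte controls and 12.4% to 13.1% with the mix. The 2 arms of the astrocytes did not differ detectably in Cox6b2 (−0.06 ± 0.051, adjusted p = 0.41).

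Cox7b2, a paralogue of Cox7b, showed the converse. It read 91.2, 69.3 and 79.0 TPM in the Neuro-2A controls, 78.9, 55.4 and 65.9 TPM with the mix, and lay at the floor in every astrocyte and BV-2 library. It made up 31.2% to 33.8% of the summed TPM of Cox7b2 and Cox7b in the Neuro-2A controls. Cox4i2, a form of subunit IV known for induction at low oxygen in lung, read 13.4, 64.7 and 50.3 TPM in the Neuro-2A controls and 26.6, 60.1 and 58.6 TPM with the mix, lowest in library 1 of both arms. It stood at 5.16, 5.37 and 4.43 TPM in the astrocyte controls and at the floor in BV-2. Ndufa4l2, the hypoxia-induced relative of Ndufa4, had the same pattern over the Neuro-2A controls, with 1.69, 6.45 and 3.35 TPM, and was at the floor elsewhere. In both genes the arms overlapped and the effect of the mix did not pass the threshold.

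The heart and muscle forms were low. Cox6a2 stood at 15.5 ± 3.00 TPM in Neuro-2A, 10.9 ± 1.82 in BV-2 and 1.38 ± 0.156 in the astrocyte controls, and Cox7a1 at 8.61 ± 1.98, 9.36 ± 0.731 and 24.0 ± 4.09 TPM in that order (SD, n = 3). Cox8b, the muscle form of subunit VIII, and Cox8c, its testis form, had 0 counts in all 18 libraries. None of the tested restricted forms was called in the mix comparison of any cell type by the edgeR fits without a block; with the block, Cox7b2 was lower in Neuro-2A (−0.24, adjusted p = 0.0139). The broad forms Cox4i1, Cox6a1 and Cox6b1 were, after Atp5b and Cox8a, the most abundant members, and their log2 fold changes with the mix lay between −0.09 and 0.06. Cox4i1 shares 5986 bases with Gm20388 on the same strand, so reads could be split between them.

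**Figure D5:**
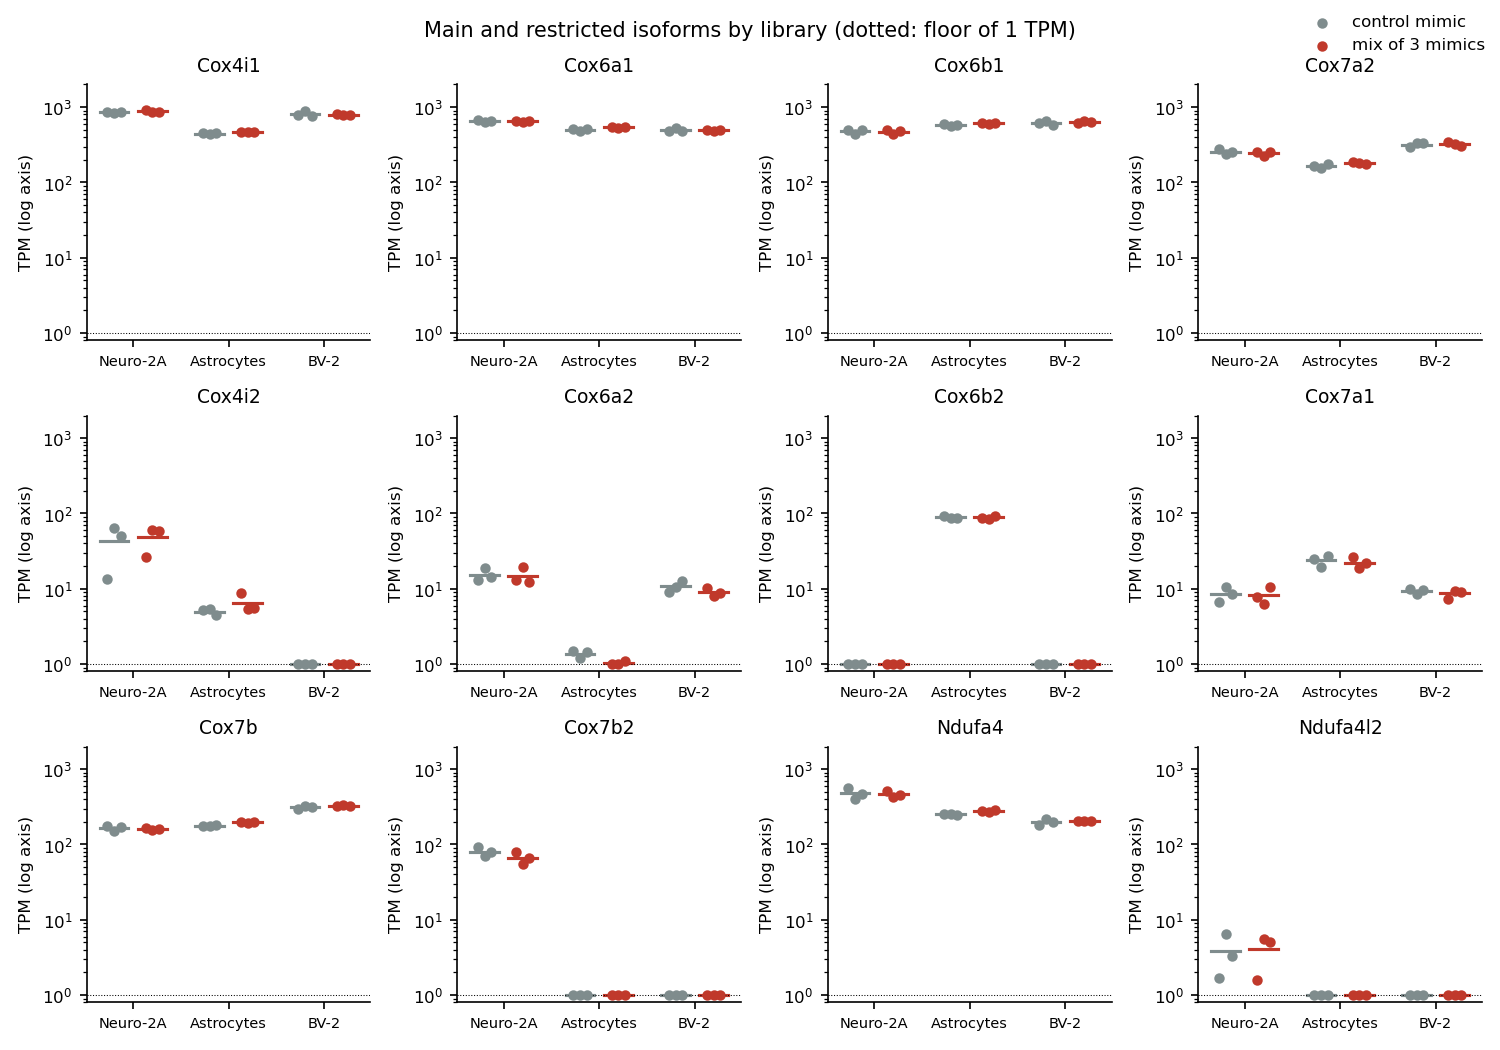
TPM on a log axis (y) of broadly expressed and restricted isoforms in every library of the control mimic (grey) and mix (red) arms, by cell type (x); short lines are means and the dotted line is the floor of 1 TPM, at which lower values are drawn. Cox6b2 leaves the floor in astrocytes and Cox7b2 in Neuro-2A.

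Few members held a seed site of the microRNAs at hand. In the longest annotated 3′ UTR of each gene, 0 of 92 members had an 8mer (ACTACTGA for miR-199a-3p or CGAGCTTA for miR-99b-3p), where 2.6% of 20867 genes had one. An 8mer or a 7mer that pairs with bases 2 to 8 was found in 3 members (3.26%, against 9.24% of all genes). The members' UTRs were short, with a median of 202 nt against 968 nt over protein-coding genes. The 3 sites, capitals marking the match, were these.
Atp5k, miR-99b-3p: ggcgtcagCGAGCTTgcttttctcta
Atp5g1, miR-99b-3p: ttgtacatgatCGAGCTTgtttatgctag
Ndufaf4, miR-199a-3p: ctactttataaACTACTGtcattctaact
Of these 3 genes, Ndufaf4 was called, higher in astrocytes, and Atp5k and Atp5g1 were called in none of the cell types. Ndufa6, Ndufa12, Ndufb7, Uqcrfs1 and Cox8a had no match of these letters in that UTR, which was 137 nt long in Ndufa6.

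The promoters of 74 members were matched in RefSeq (GRCm38.p6), each taken from 250 bases before to 50 after the start. Letters of the binding motif of NRF1 (GCGCA and GCGC parted by any base, both strands), a regulator of respiratory genes, occurred in 18 of them (24.3%) and in 6.84% of 16403 promoters of all genes. The ETS letters CCGGAAG, which GABP binds, occurred in 17 (23% against 12.2%), on either strand and counted whether or not the other motif overlapped. Windows of 3 members that rose in Neuro-2A and astrocytes are shown on the gene's strand, with the motif in capitals. The NRF1 letters of Ndufa6 and Ndufa8 matched on the other strand, so their capitals show the reverse complement.
Ndufa6 (NRF1, chr15:82354249-82354278, minus strand): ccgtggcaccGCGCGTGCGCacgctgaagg
Ndufa8 (NRF1, chr2:36049349-36049378, minus strand): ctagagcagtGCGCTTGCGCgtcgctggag
Ndufs3 (ETS, chr2:90904732-90904758, minus strand): ccgcgtccgcCCGGAAGaagagtcact
Ndufs3 (ETS on the other strand, chr2:90904704-90904730, minus strand): cacatttccaCTTCCGGtccgtgccct
Cox8a and Ndufb7, which fell in Neuro-2A, also held the ETS letters, and Ndufa12 and Uqcrfs1 held neither motif in this window. The matches describe sequence and were not set against binding.

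Genes around the chain gave context. Of 34 assembly factors of complexes II to V, 2 were lower and 0 higher in Neuro-2A, 4 lower and 11 higher in astrocytes, and 1 lower in BV-2. The share called was 5.88%, 44.1% and 2.94%, where 12.9%, 40.2% and 10.0% of all genes were called. Uqcc2, an assembly factor of complex III, was lower in Neuro-2A (−0.31 ± 0.062, adjusted p = 0.0166) and in astrocytes (−0.28 ± 0.057, 0.00192), as Uqcrfs1 was. Lyrm7, a chaperone of the Rieske protein, was higher in astrocytes at a low level, rising from 3.40 ± 0.0934 to 5.36 ± 0.115 TPM (0.59 ± 0.092, 0.000238). Of 14 tricarboxylic acid cycle genes, 3 were lower in Neuro-2A, 5 lower and 5 higher in astrocytes and 1 higher in BV-2, which is 21.4%, 71.4% and 7.14% of the list. The first enzyme of the cycle, citrate synthase (Cs), read 296.4, 265.8 and 260.4 TPM in the Neuro-2A controls and 207.1, 192.3 and 203.3 TPM with the mix. It was lower there by −0.43 ± 0.061 (adjusted p = 0.00434) and in astrocytes by −0.24 ± 0.030 (4.72e-05), and in BV-2 it changed by −0.16 ± 0.047 (0.0673). Of 5 electron transfer genes outside the naming rule (Cyc1 of complex III, Cycs, Etfa, Etfb and Etfdh), 0 were called in any cell type by edgeR. An unadjusted p under 0.05 was found for 2 of them in astrocytes and 1 in BV-2. Of the 7 tested complex I assembly genes outside the naming rule, 1 was lower in Neuro-2A (Tmem186) and 1 in astrocytes (Foxred1). Lyrm7, Tmem186 and Foxred1 were named after their values were seen.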

How the data were processed

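Per the labels' protocols, poly(A) RNA of 18 libraries was prepared with the NEBNext Ultra II Directional kit; the submitters' processing notes name Trimmomatic 0.39, STAR 2.7.10b and mm10, without role or order. How reads were counted, with which annotation and whether by strand, the sources used here do not state. The authors deposited expected counts, of which 35.5% to 42.2% per library were not whole, and 79 of the 92 members had such counts in all libraries. They also deposited log2 TPM values in which a TPM of 1 or less is set to 0; such values were taken as 1 TPM here.

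Counts were rounded and tested per cell type with edgeR 4.0.16 (R 4.3.3; filterByExpr with a minimum count of 10, TMM, quasi-likelihood test, Benjamini-Hochberg adjustment over all tested genes, threshold 0.05). Differences between cell types came from a fit of 6 group means. Log2 fold changes carry SEs and TPM carry SDs of 3 libraries. Alternatives used DESeq2 1.42.0, limma 3.58.1 on log2(TPM + 1) or log2(TPM + 0.1), other filters, library subsets and a replicate block. Scripts were tested on simulated data. Same-numbered Neuro-2A libraries deviated together (r = 0.587, 0.395 and 0.262, all above 0.1), so the label numbers were taken to pair them. Library 1 of each arm, far from the rest, contributes to this. Mix library 2 with control library 3 (0.245) and mix library 3 with control library 2 (0.169) also lay above 0.1. The correlations therefore set number 1 apart and do not clearly pair numbers 2 and 3.

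The members, lists and tests were chosen with earlier results of these data known. Genes were named by rule: per cell type and complex the 3 smallest adjusted p in each direction at 5 TPM or more, calls in all cell types, the 3 smallest interaction p per pair, the 5 most abundant, levels ranging at least 20 times, tissue isoforms, the Sdh genes, and from related lists the 4 smallest adjusted p; other names were added after their values were seen. Sites were searched in GENCODE M21 3′ UTRs. Total depth limits the precision for members with low counts.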

Additional observations from a re-analysis of the deposited data

Results flagged for a closer look

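The effect of the mix differed between cell types for 6 results, each by an interaction test in the edgeR fit of all 18 libraries. Ndufa12 differed by 0.502 on the log2 scale between astrocytes, where it rose in 3 of 3 libraries, and Neuro-2A, where it fell in 3 of 3 (adjusted p = 0.0077). Astrocytes exceeded BV-2 by 0.428 for Ndufs3, by 0.419 for Ndufa6 and by 0.358 for Ndufa8 (adjusted p = 0.00306, 0.00671 and 0.0138). Neuro-2A exceeded BV-2 by 0.388 for Ndufa8 and by 0.396 for Ndufa6 (adjusted p = 0.0156 and 0.0166). The 2 results on Ndufa8 each lost their call when 1 library was left out, at adjusted p-values of 0.0519 and 0.0517. The astrocyte cultures carried markers of other cell types, and their part in these differences was not tested.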

How the results depend on the processing

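With the replicate block, which pairs libraries by their label numbers, 10 Neuro-2A members were lower and 16 higher (4 and 3 without it), 6 astrocyte members were lower (3), and 1 BV-2 member was lower and 0 higher (0 and 1); the counts of differing effects were 3 between astrocytes and Neuro-2A, 9 between astrocytes and BV-2 and 6 between Neuro-2A and BV-2 (1, 3 and 2). The astrocyte and BV-2 numbers were not taken to pair the libraries. Their same-number correlations of deviations were not all above 0.1 (0.115, 0.075 and 0.108 in astrocytes, and 0.008, 0.128 and −0.005 in BV-2). In astrocytes the correlations across numbers were 0 or below. Every astrocyte library thus correlated best with its own number, a hint of pairing from the data and not the design. With Neuro-2A libraries 2 and 3 alone, chosen after the data were seen, 7 members were lower and 5 higher, where 2069 and 1594 of 16123 genes were. The DESeq2 test gave 5 higher in Neuro-2A, 9 higher in astrocytes, 2 lower in BV-2, and 2 and 6 differing effects between astrocytes and Neuro-2A or BV-2. Limma on log2(TPM + 1) and on log2(TPM + 0.1) each gave 1 lower and 44 higher in astrocytes and 3 higher in BV-2. Without a filter 12 astrocyte and 0 BV-2 members were higher. The fit of all 18 libraries gave 6 higher in Neuro-2A, 8 higher in astrocytes and 3 lower in BV-2. Leaving out 1 library gave 3 to 4 lower and 1 to 3 higher in Neuro-2A, 3 to 4 lower and 7 to 18 higher in astrocytes, 0 to 4 lower and 0 to 2 higher in BV-2, 1 to 2, 2 to 10 and 1 to 4 differing effects in the order above, and 77 to 83, 67 to 73 and 70 to 74 differing control levels (astrocytes minus Neuro-2A, astrocytes minus BV-2, Neuro-2A minus BV-2). In BV-2 the 4 came without control library 1, the 3 without control library 2 and the 2 without control library 2. The cause was not tested. No value changed to a call in the opposite direction; among single genes and medians 2506 values kept their side of the threshold, 61 gained and 75 lost a call and 7 medians moved.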

Other observations

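The carriers that supply the ATP synthase were also measured, in a list of 13 mitochondrial carriers and voltage gates. By edgeR's quasi-likelihood test, 1 was lower and 2 higher in Neuro-2A, 2 lower and 4 higher in astrocytes and 3 lower and 2 higher in BV-2. The share called was 23.1%, 46.2% and 38.5%, where 12.9%, 40.2% and 10.0% of all genes were called. The adenine nucleotide carrier Slc25a4, which exchanges ADP for ATP, read 953.6, 984.7 and 978.3 TPM in the Neuro-2A controls and 630.0, 701.3 and 707.6 TPM with the mix. All mix libraries lay below the controls there, and also in astrocytes (501.3 ± 7.41 against 470.3 ± 6.92 TPM) and in BV-2 (404.5 ± 9.40 against 348.1 ± 9.59 TPM). Its log2 fold change was −0.50 ± 0.057 in Neuro-2A (adjusted p = 0.00181), −0.16 ± 0.031 in astrocytes (0.00159) and −0.29 ± 0.054 in BV-2 (0.0126). The phosphate carrier Slc25a3, which brings phosphate for ATP synthesis, went the other way in Neuro-2A (0.40 ± 0.056, 0.00431) and astrocytes (0.30 ± 0.033, 1.15e-05). It changed by 0.11 ± 0.061 in BV-2 (0.328). Slc25a5, another adenine nucleotide carrier in the list, did not fall with Slc25a4. Its mean rose from 385.3 to 431.2 TPM in astrocytes, without overlap. In Neuro-2A (434.8 and 456.2 TPM) and BV-2 (982.1 and 1035 TPM) its arms overlapped.

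Of 17 tested regulators of mitochondrial biogenesis, 0 were lower and 1 higher in Neuro-2A, and 2 lower and 5 higher in astrocytes. In BV-2, 2 were lower and 1 higher. In that order of cell types the share called was 5.88%, 41.2% and 17.6%, where 12.9%, 40.2% and 10.0% of all genes were called. Polg, the catalytic subunit of the mitochondrial DNA polymerase, was higher in all 3 cell types, with 17.98, 18.93 and 19.88 TPM in the Neuro-2A controls against 22.79, 21.75 and 21.37 TPM with the mix. Its log2 fold change was 0.23 ± 0.059 in Neuro-2A (adjusted p = 0.0378), 0.56 ± 0.037 in astrocytes (1.62e-07) and 0.35 ± 0.065 in BV-2 (0.0113). The coactivator Ppargc1a stood at 25.0 ± 0.659 TPM in the astrocyte controls and at the floor of 1 TPM in all Neuro-2A and BV-2 libraries. Its relative Ppargc1b stood at 15.9 ± 1.87 TPM in the Neuro-2A and 12.9 ± 0.981 TPM in the BV-2 controls (SD, n = 3) and at the floor in all astrocyte libraries. Both were named after their values were seen.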
